A study of Mus musculus with 18 samples.

Results

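The 10 genes described here belong to lipopolysaccharide (LPS) sensing and the acute-phase response: Lbp, Tril, Cd14, Ly96, Tlr4, Tlr2, Tlr3, Myd88, Saa3 and Hp. They were picked by gene symbol from the 55486 genes of the count table, and all 10 were among the 14273 genes with enough reads to be tested. RNA sequencing measured them in 18 libraries made from cultured primary mouse mammary normal fibroblasts (NFs) of the FVB/n strain, either CD26- or CD26+. Each NF type was kept for 7 days in control medium (3 libraries) or in conditioned medium (CM) of mouse mammary tumor lines (6 libraries, 1 for each of 6 lines), and the study asked whether both NF types respond differently to tumor CM. The tumor lines came from females with Cre under the Wap promoter, which acts in mammary epithelium, and floxed Cdh1, in a model of invasive lobular carcinoma. The NFs came from adult females on an FVB/n background that lacked this Cre, carrying floxed alleles or a fluorescent reporter. Glands of several mice were pooled for a sort, cells without epithelial, blood and endothelial surface markers were split by surface CD26, and the NFs were cultured for a few passages before use. Replicates are numbered 1 to 3 for CD26- controls, 4 to 9 for CD26- NFs in tumor CM, 10 to 12 for CD26+ controls and 13 to 18 for CD26+ NFs in tumor CM. No label ties the libraries to separate animals, so the p-values measure the spread between these libraries, which may be technical in part. Lbp and Tril had been singled out by their difference between CD26+ and CD26- NFs in tumor CM, so for them that difference is described here without a test.

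LPS, a component of the outer membrane of Gram-negative bacteria, is carried in serum by the LPS-binding protein Lbp, handed to the surface protein Cd14 and presented to a receptor made of Tlr4 and its partner Ly96 (MD-2). Tlr2 senses bacterial lipoproteins, Tlr3 senses double-stranded RNA inside endosomes, and Tril is an accessory protein of Tlr4 and Tlr3. Myd88 is the adaptor that links Tlr2, Tlr4 and the interleukin-1 receptors, but not Tlr3, to NF-kB. Acute-phase proteins such as haptoglobin (Hp) and the serum amyloids are made mainly by the liver in inflammation, while Saa3 is the serum amyloid of mice best known outside the liver. The sources used here name no addition of LPS or another bacterial product to the cultures.

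On the mouse genome build GRCm38, Lbp (ENSMUSG00000016024) spans chromosome 2 from 158306493 to 158332852 on the plus strand, and Tril (ENSMUSG00000043496) spans chromosome 6 from 53815468 to 53820830 on the minus strand. Saa3 (ENSMUSG00000040026) spans chromosome 7 from 46711998 to 46715700, Hp (ENSMUSG00000031722) spans chromosome 8 from 109575128 to 109579172 and Tlr2 (ENSMUSG00000027995) spans chromosome 3 from 83836272 to 83841767, all on the minus strand. Counts are over all exons of a gene. Of the 10 genes, 6 shared no 65-base stretch of transcript (the read length) with another gene, and 2.38% of such stretches of Saa3 were shared with other genes but none with its relatives Saa1, Saa2 or Saa4, whose highest counts in any library were 12, 3 and 3. Tril and Tlr3 overlap antisense genes with 17 and 2 counts in all 18 libraries together, and Myd88 overlaps Acaa1a on the opposite strand, which had 5057 counts. Whether reads were counted by strand is not given in the sources used here, so reads from those shared stretches, 19.3% of the 65-base windows of Tril, 4.68% of Tlr3 and 6.23% of Myd88, may not be told apart.

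Promoter sequences were at hand for 5 of the 10 genes, from RefSeq on GRCm38.p6. Those of Saa3 and Tlr2 are shown because Saa3 had the largest fold change with tumor CM and Tlr2 responded differently in the NF types, and that of Tril as a gene that differed between NF types in both media. Only bases before the annotated transcript start are printed, 5′ to 3′ on the gene's strand, with motif matches in capitals. The stretches are chr7:46715701-46715926, chr3:83841768-83841858 and chr6:53820831-53821075, all on the minus strand.
Saa3: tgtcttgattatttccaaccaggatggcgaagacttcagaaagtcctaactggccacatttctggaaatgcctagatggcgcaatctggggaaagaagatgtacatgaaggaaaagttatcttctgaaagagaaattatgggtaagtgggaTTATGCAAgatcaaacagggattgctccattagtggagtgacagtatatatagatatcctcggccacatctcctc
Tlr2: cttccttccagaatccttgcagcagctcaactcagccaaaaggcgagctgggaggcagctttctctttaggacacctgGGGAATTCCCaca
Tril: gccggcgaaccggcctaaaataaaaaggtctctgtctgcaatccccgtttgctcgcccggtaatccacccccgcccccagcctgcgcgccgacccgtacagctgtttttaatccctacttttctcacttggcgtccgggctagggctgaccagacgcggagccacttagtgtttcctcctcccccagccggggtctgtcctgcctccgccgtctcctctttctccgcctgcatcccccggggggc
The capitals in Saa3 mark a match to a C/EBP motif, TTGCNNAA, on the opposite strand, whose first base lies at position -99 from the RefSeq gene start. Those in Tlr2 mark a match to an NF-kB motif (GGG, any pair of bases, TT, any base, CC) at -172. Tlr3 held 1 match to each of these motifs, at -211 for NF-kB and -95 for C/EBP, and Myd88 held a STAT motif, TTCNNNGAA, at -46. Tril held none of them, and an AP-1 motif, TGANTCA, was in none of the 5. Over both strands of all 32851 promoters in the table, which run from 250 bases before to 50 after a gene start, 4.79% held the NF-kB letters, 10.8% those of C/EBP, 8.30% those of STAT and 7.81% those of AP-1. These are matches of letters and not measured binding.

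The libraries held 9725723 to 14585349 counts. Fibroblast genes (9 markers) were expressed in every library, with summed levels between 9813 and 79501 CPM (read counts scaled to library size), higher in CD26+ than in CD26- NFs in each medium, and in CD26+ NFs lower in tumor CM (29191 to 52131 CPM) than in control medium (62522 to 79501). Col1a1, Col1a2 and Col3a1 made up most of these sums. By gene, 3 of the 9 markers were higher and 4 lower with tumor CM in CD26+ NFs. Mean Col3a1 went from 23468 to 6633 CPM there, and mean Dcn from 390 to 3566 CPM. Leukocyte genes (15 markers) summed to 21.2 to 35.9 CPM, most of it from Csf1r (group means 17.5 to 21.7 CPM), with S100a8 at up to 119 counts and Cd68 and Lyz2 at up to 48 in a library, while Ptprc, Adgre1, Itgam and Tyrobp had at most 3. Of 6 liver markers Alb reached at most 3 counts and Ttr was at 0. Epithelial genes (12 markers) summed to 2727 to 4728 CPM in CD26- NFs and 644 to 1541 CPM in CD26+ NFs, so they move with NF type. Adipocyte genes (8 markers, mostly Lpl) summed to 156 to 183 CPM in control medium and 220 to 519 CPM in tumor CM in CD26- NFs, and to 716 to 785 and 1199 to 1754 CPM in CD26+ NFs, and Lpl and Fabp4 made up most of the change, while Adipoq went from a mean of 1.75 to 0.449 CPM, Cidec from 0.418 to 0.0505 CPM, Cfd from 0.359 to 0.0402 CPM and Plin1 from 3.88 to 5.87 CPM in tumor CM in CD26+ NFs. The part of these cell type markers in the differences below was not tested. Dpp4, the gene of CD26, was at no more than 0.171 CPM in any control library of either NF type, so the sort label could not be checked by RNA in control medium. In tumor CM Dpp4 was at 0.0776 to 0.881 CPM in CD26- NFs and at 0.715 to 7.80 CPM in CD26+ NFs, ranges that overlapped. In bulk RNA, fewer cells of a type and less RNA per cell cannot be told apart.

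Tumor CM raised Saa3 and Hp, the acute-phase members, in both NF types, and raised 4 of the 8 sensing genes in CD26+ NFs. In CD26- NFs, 2 of the 10 genes were higher in tumor CM (Saa3 and Hp) and 1 was lower (Tril, which was chosen partly by these tumor CM values), where 7.88% of all tested genes were higher, 7.28% lower and 15.2% either (edgeR, false discovery rate, FDR, under 0.05). In CD26+ NFs, 6 were higher (Saa3, Hp, Tlr2, Cd14, Tlr4 and Myd88) and none was lower, where 28.6% of all tested genes passed and 15.2% were higher. The median log2 fold change of the 10 was 0.12 in CD26- NFs and 0.50 in CD26+ NFs, against 0.01 and -0.00 over all tested genes. Between NF types in control medium, 3 were higher in CD26+ NFs (Lbp, Hp and Tril) and 3 were lower (Tlr3, Tlr2 and Cd14), where 25.0% of tested genes were higher, 25.4% lower and 50.3% either. In tumor CM, 6 of the 8 genes other than Lbp and Tril passed, with 4 higher in CD26+ NFs (Saa3, Hp, Tlr4 and Myd88) and 2 lower (Tlr3 and Cd14), where 29.3% of tested genes were higher, 29.3% lower and 58.6% either, so most genes passed this comparison whether members or not. These comparisons share libraries and are not independent of each other.

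**Figure D1:**
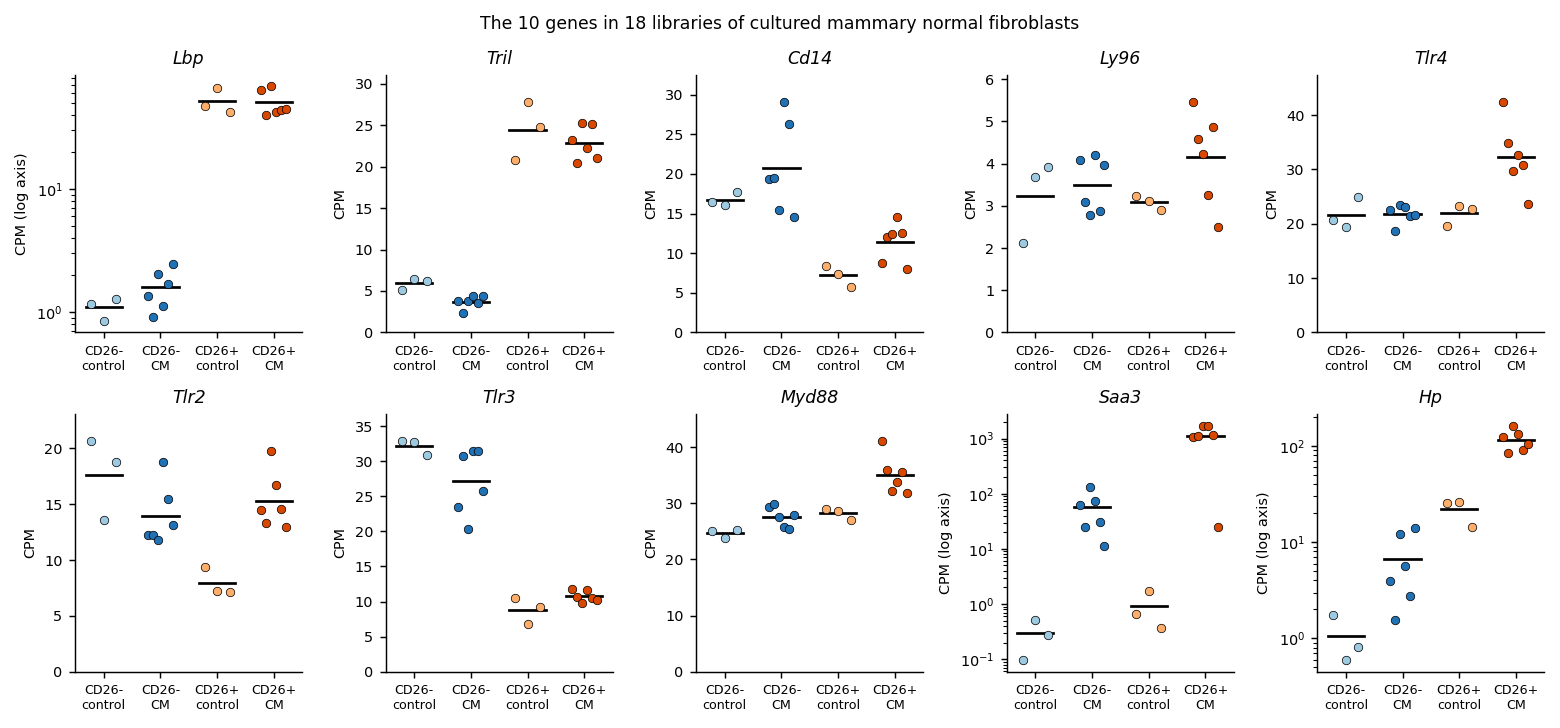
Levels of the 10 genes in each of the 18 libraries, in CPM, by NF type and medium, with 1 point per library and a bar at the group mean. Axes are log for Saa3, Hp and Lbp and linear for the other genes. Saa3 sits between 1066 and 1720.2 CPM in 5 of the 6 CD26+ libraries in tumor CM and at 24.6 CPM in the other one, and Lbp and Tril separate the NF types in both media.

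Compared per kilobase of exon, the order of the genes changed with NF type and medium. In CD26- NFs in control medium, Cd14 (9.67 ± 0.503 CPM per kb; mean ± SD, n = 3) and Myd88 (9.60 ± 0.308) led and overlapped each other, followed without overlap by Tlr3 and Tlr2, while Hp (0.654 ± 0.379), Lbp (0.228 ± 0.0460) and Saa3 (0.113 ± 0.0801) were lowest. In CD26+ NFs in control medium, Hp (13.7 ± 4.05), Myd88 (11.0 ± 0.411) and Lbp (10.7 ± 2.53) led and overlapped each other, and Tlr3 (1.69 ± 0.368) and Saa3 (0.348 ± 0.270) were lowest, neither overlapping its neighbors. In tumor CM the highest mean in both NF types was that of Saa3, at 21.7 ± 17.2 CPM per kb in CD26- NFs and 434 ± 237 in CD26+ NFs (n = 6). Its range overlapped that of the next gene in each case, Cd14 and Hp. In CD26+ NFs in tumor CM Hp followed at 72.5 ± 18.1, without overlap with Myd88 at 13.6 ± 1.29, and the receptors lay between 2.07 (Tlr3) and 5.82 (Tlr4).

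Lbp was expressed in CD26+ NFs in either medium and was close to the detection limit in CD26- NFs. Its levels in control medium were 1.16, 0.854 and 1.29 CPM in CD26- NFs (10 to 19 counts) and 47.2, 65.7 and 42.6 CPM in CD26+ NFs. In tumor CM the lowest, median and highest levels were 0.912, 1.53 and 2.48 CPM in CD26- NFs and 40.3, 44.2 and 68.4 CPM in CD26+ NFs. Every CD26+ library lay above every CD26- library, in both media. The difference in control medium was 5.53 ± 0.32 on the log2 scale (SE; FDR 2.14e-09), or 46.2-fold, and in tumor CM, where the gene was chosen, it was 4.99 ± 0.21 without a test. Tumor CM itself moved Lbp by 0.51 ± 0.42 in CD26- NFs (FDR 0.446) and by -0.03 ± 0.18 in CD26+ NFs (FDR 0.914), neither past the threshold. Both values rest on tumor CM libraries that the choice of Lbp used, so these FDRs are not independent tests.

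Tril, the accessory protein of Tlr4 and Tlr3, shared the direction of Lbp between NF types at a smaller size. CD26- NFs had 5.13, 6.41 and 6.16 CPM in control medium, and in tumor CM 2.32 at the lowest, 3.79 at the median and 4.35 at the highest. CD26+ NFs had 20.8, 27.8 and 24.8 CPM in control medium, and 20.4, 22.8 and 25.2 in tumor CM. All 6 CD26- libraries in tumor CM were below the 3 in control medium, whereas the CD26+ ranges overlapped. Tril was 4.13-fold higher in CD26+ NFs in control medium (log2 2.05 ± 0.16, FDR 3.58e-08) and differed by 2.64 ± 0.12 in tumor CM, without a test. Its difference between media was -0.69 ± 0.16 in CD26- NFs and -0.10 ± 0.12 in CD26+ NFs. These rest on tumor CM libraries that the choice of Tril used, so the FDR of 0.0081 in CD26- NFs (0.0524 without control replicate 3) is not an independent test. The effects of tumor CM on the NF types differed by 0.59 ± 0.20, also without a test, since this value holds the difference Tril was chosen by.

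Cd14, which hands LPS to the receptor, ran opposite to Lbp between NF types. In control medium it was at 16.5, 16.1 and 17.7 CPM in CD26- NFs and at 8.34, 7.41 and 5.79 CPM in CD26+ NFs, with no overlap, and was 2.34-fold lower in CD26+ NFs (log2 -1.23 ± 0.26, FDR 0.000662). In tumor CM it ranged from 14.5 to 29.0 CPM around a median of 19.4 in CD26- NFs, and from 7.95 to 14.5 around 12.2 in CD26+ NFs, again lower in CD26+ NFs (log2 -0.86 ± 0.17, FDR 0.000336). Tumor CM raised Cd14 in CD26+ NFs by 0.67 ± 0.23 (FDR 0.0383), but this call was lost without any 1 of 7 libraries (replicates 10, 11, 12, 14, 15, 16 and 17, FDR 0.0524 to 0.176). In CD26- NFs the change was 0.31 ± 0.21 (FDR 0.344). Ly96, the partner of Tlr4, was low in all groups, with means between 3.08 and 4.15 CPM and 22 to 72 counts per library, and passed no test (FDR 0.171 to 0.842).

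Tlr4, the LPS receptor itself, overlapped between the NF types in control medium, with 20.7, 19.4 and 25.0 CPM in CD26- NFs and 19.7, 23.3 and 22.7 CPM in CD26+ NFs (log2 difference 0.01, FDR 0.963). In tumor CM CD26- NFs ranged from 18.7 to 23.5 CPM around a median of 22.1, overlapping their controls. CD26+ NFs in tumor CM ranged from 23.7 to 42.4 CPM around a median of 31.7, all above their controls. Tlr4 rose in CD26+ NFs by 0.56 ± 0.13 (FDR 0.00464) against 0.00 ± 0.13 in CD26- NFs (FDR 0.99), and was higher in CD26+ than in CD26- NFs in tumor CM by 0.57 ± 0.11 (FDR 0.000201). The test of the difference between both effects gave 0.56 ± 0.19 with an FDR of 0.074. That FDR was 0.0115 without replicate 18, the CD26+ library with the lowest Tlr4 in tumor CM, and 0.039 with the CM line as a block.

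Tlr2, the lipoprotein receptor, responded differently in the NF types, the 1 member called by edgeR with all libraries and no block. With the CM line as a block, Tlr4 and Tlr3 were called too. CD26- NFs had 20.6, 13.6 and 18.7 CPM in control medium and 11.8, 12.7 and 18.8 CPM at the lowest, median and highest in tumor CM. CD26+ NFs had 9.39, 7.26 and 7.12 CPM in control medium and 13.0, 14.5 and 19.8 CPM in tumor CM. The CD26+ libraries in tumor CM all lay above their controls, and the CD26- ranges overlapped. Tlr2 rose in CD26+ NFs by 0.95 ± 0.18 (FDR 0.000876) and changed by -0.34 ± 0.17 in CD26- NFs (FDR 0.174), a difference of 1.29 ± 0.24 (FDR 0.00583) where 7.53% of tested genes passed (4.53% with a higher and 3.01% with a lower value in CD26+ NFs). Under the alternative settings this difference was between 1.16 and 1.44, with FDRs up to 0.0344. In control medium Tlr2 was 2.23-fold lower in CD26+ NFs (log2 -1.16 ± 0.20, FDR 0.000124), and in tumor CM the NF types differed by 0.13 ± 0.14 (FDR 0.421).

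Tlr3, the double-stranded RNA receptor, was higher in CD26- NFs in both media. It was at 32.8, 32.7 and 30.9 CPM in CD26- controls and at 10.5, 6.74 and 9.20 CPM in CD26+ controls, 3.65-fold lower in CD26+ NFs (log2 -1.87 ± 0.16, FDR 1.14e-07). In tumor CM the ranges were 20.3 to 31.5 CPM and 9.80 to 11.8 CPM, and the difference was -1.33 ± 0.11 (FDR 3.38e-08). The change with tumor CM passed in neither NF type (FDR 0.222 in CD26- and 0.157 in CD26+ NFs). Their difference was 0.53 ± 0.20 (FDR 0.101), with an FDR of 0.0402 with the CM line as a block. Myd88, the adaptor, changed by smaller amounts. Its means were 24.7 ± 0.797 and 28.2 ± 1.06 CPM in CD26- and CD26+ NFs in control medium, and 27.6 ± 1.81 and 35.1 ± 3.34 CPM in tumor CM. It rose with tumor CM in CD26+ NFs by 0.31 ± 0.07 (FDR 0.00458) and was higher in CD26+ than in CD26- NFs in tumor CM by 0.34 ± 0.06 (FDR 9.99e-05), while its change in CD26- NFs was 0.16 ± 0.08 (FDR 0.164).

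Saa3, the extrahepatic serum amyloid, had the largest fold change of the 10 genes with tumor CM in either NF type. In control medium it was at 0.0968, 0.512 and 0.271 CPM in CD26- NFs (1 to 6 counts) and at 0.648, 1.70 and 0.371 CPM in CD26+ NFs (5 to 23 counts). In tumor CM the lowest, median and highest levels were 11.4, 47.0 and 134 CPM in CD26- NFs and 24.6, 1136 and 1720.2 CPM in CD26+ NFs. Each library in tumor CM was above each control of its NF type. Within the CD26+ group 5 libraries lay between 1066 and 1720.2 CPM, and replicate 18 (line 13-MCB-138) was 43.4-fold below the lowest of them. The mean in tumor CM was 189 times the pooled control level in CD26- NFs (95% interval 106 to 378, exact Poisson on 11 control counts) and 1237 times in CD26+ NFs (893 to 1766, on 36 control counts). These intervals cover counting error of the controls only. The fitted change was 7.52 ± 1.62 on the log2 scale in CD26- NFs (FDR 0.00555) and 10.26 ± 1.41 in CD26+ NFs (FDR 4.86e-05). Without replicate 18 the latter was 10.51 (FDR 1.43e-07). In tumor CM Saa3 was higher in CD26+ than in CD26- NFs by 4.32 ± 0.69 (FDR 3.88e-05), and by 4.58 without replicate 18 (FDR 1.69e-07). The ranges of the NF types overlapped there, since replicate 18 at 24.6 CPM lay within the CD26- range. In control medium the NF types could not be separated (1.58 ± 3.12, FDR 0.703), and the difference in response was 2.74 ± 4.12 (FDR 0.729).

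Hp, the hemoglobin-binding acute-phase protein, differed with both NF type and medium. CD26- NFs had 1.74, 0.598 and 0.812 CPM in control medium and 1.54, 4.78 and 14.1 CPM at the lowest, median and highest in tumor CM, so these ranges overlapped. CD26+ NFs had 25.3, 26.2 and 14.5 CPM in control medium and 84.5, 114 and 163 CPM in tumor CM, without overlap. Hp rose with tumor CM by 2.40 ± 0.42 in CD26+ NFs (FDR 0.000427) and by 2.70 ± 0.74 in CD26- NFs (FDR 0.0204), the latter lost without control replicate 2 (FDR 0.0775) or 3 (FDR 0.107). It was 21.6-fold higher in CD26+ NFs in control medium (log2 4.43 ± 0.70, FDR 4.9e-05) and higher by 4.14 ± 0.36 in tumor CM (FDR 4.35e-08). The responses differed by -0.30 ± 0.90 (FDR 0.878). Defining liver markers were at or near 0 in these libraries (at most 1.44 CPM summed), while the adipocyte markers, which differed in direction with tumor CM in CD26+ NFs (Lpl, Fabp4 and Plin1 higher in mean level, Adipoq, Cidec and Cfd lower), are given above.

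**Figure D2:**
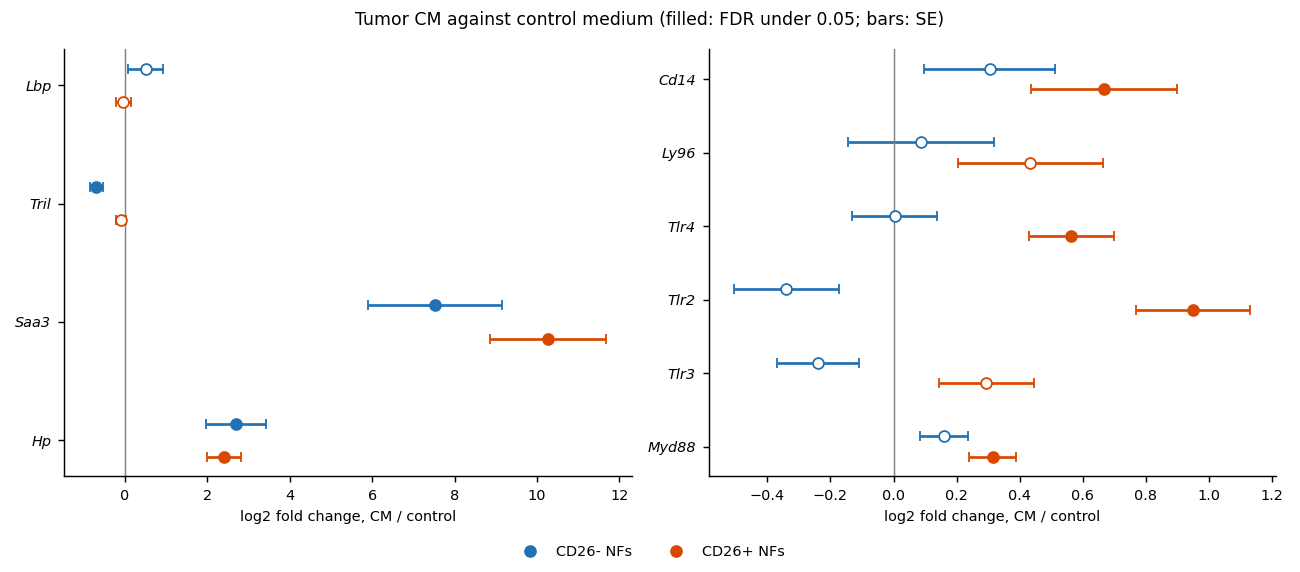
Log2 fold changes of the 10 genes in tumor CM against control medium in CD26- and CD26+ NFs, with bars for the SE and filled symbols for an FDR under 0.05. Saa3 and Hp are higher in both NF types, and Tlr2, Tlr4, Cd14 and Myd88 have filled symbols in CD26+ NFs alone, with Tlr2 the one whose 2 effects passed the test of their difference (1.29).

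**Figure D3:**
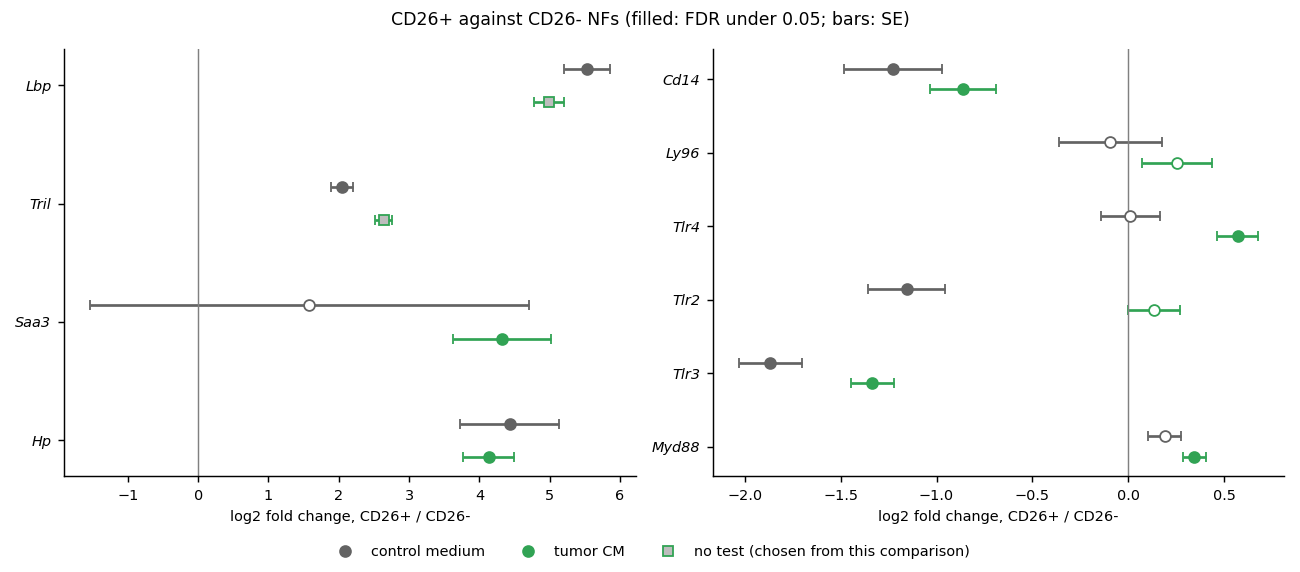
Log2 fold changes of the 10 genes in CD26+ against CD26- NFs, in control medium and in tumor CM, with bars for the SE and filled symbols for an FDR under 0.05. Grey squares mark Lbp and Tril in tumor CM, which were chosen from that comparison and not tested, and Tlr3 and Cd14 lie below 0 in both media.

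By the limits used in the study (FDR under 0.05 and a log2 fold change beyond 2), Saa3 and Hp were past them with tumor CM in both NF types. Genes past these limits made up 0.904% of tested genes in CD26- NFs and 2.01% in CD26+ NFs. Lbp, Hp and Tril were past them between NF types in control medium, where 5.97% of tested genes were. In tumor CM Saa3 and Hp were, beside Lbp and Tril, which were not tested, where 4.16% of tested genes were. Groups did not overlap for 3 members with tumor CM in CD26- NFs (Saa3, Tril and Myd88, where 20.3% of tested genes did not), for 5 in CD26+ NFs (25.3%) and for 7 between NF types in control medium (64.7%). Between NF types in tumor CM they did not overlap for 6 (31.7%), among them Lbp and Tril, which were chosen from that comparison. Saa3 and Cd14 overlapped there.

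Saa3 ranged widely over the tumor lines that gave the CM, although no member passed the test of the line. The ratio of the highest to the lowest Saa3 level over the 6 lines was 70.0 in CD26+ NFs and 11.8 in CD26- NFs, and line 13-MCB-138 gave the lowest level in each. The CM of 18-MCB-12 gave the highest Saa3 in both, 1720.2 CPM in CD26+ and 134 CPM in CD26- NFs. In a test of the line over the 12 tumor CM libraries, 0 of the 10 genes passed (edgeR, FDR 0.07 for Cd14, 0.0765 for Saa3 and 0.158 for Lbp), where 6.56% of tested genes did. At an unadjusted p under 0.05 there were 3 of them (Cd14, Saa3 and Lbp), where 22.5% of tested genes were, and DESeq2 called 1, Cd14 (FDR 0.00823). Over the 6 lines, the Saa3 levels in CD26- and CD26+ NFs had the highest Pearson r of the 10 genes (0.78, exact permutation p 0.0181, adjusted over the 10 genes 0.181; Spearman rho 0.83, exact p 0.0583, adjusted 0.291; r 0.57 without the 2 lines farthest from the median). Cd14 had the same rho, and Hp had r 0.66 with all lines (exact p 0.156) and 0.94 without the 2 farthest. None of the 10 relations passed after adjustment.

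**Figure D4:**
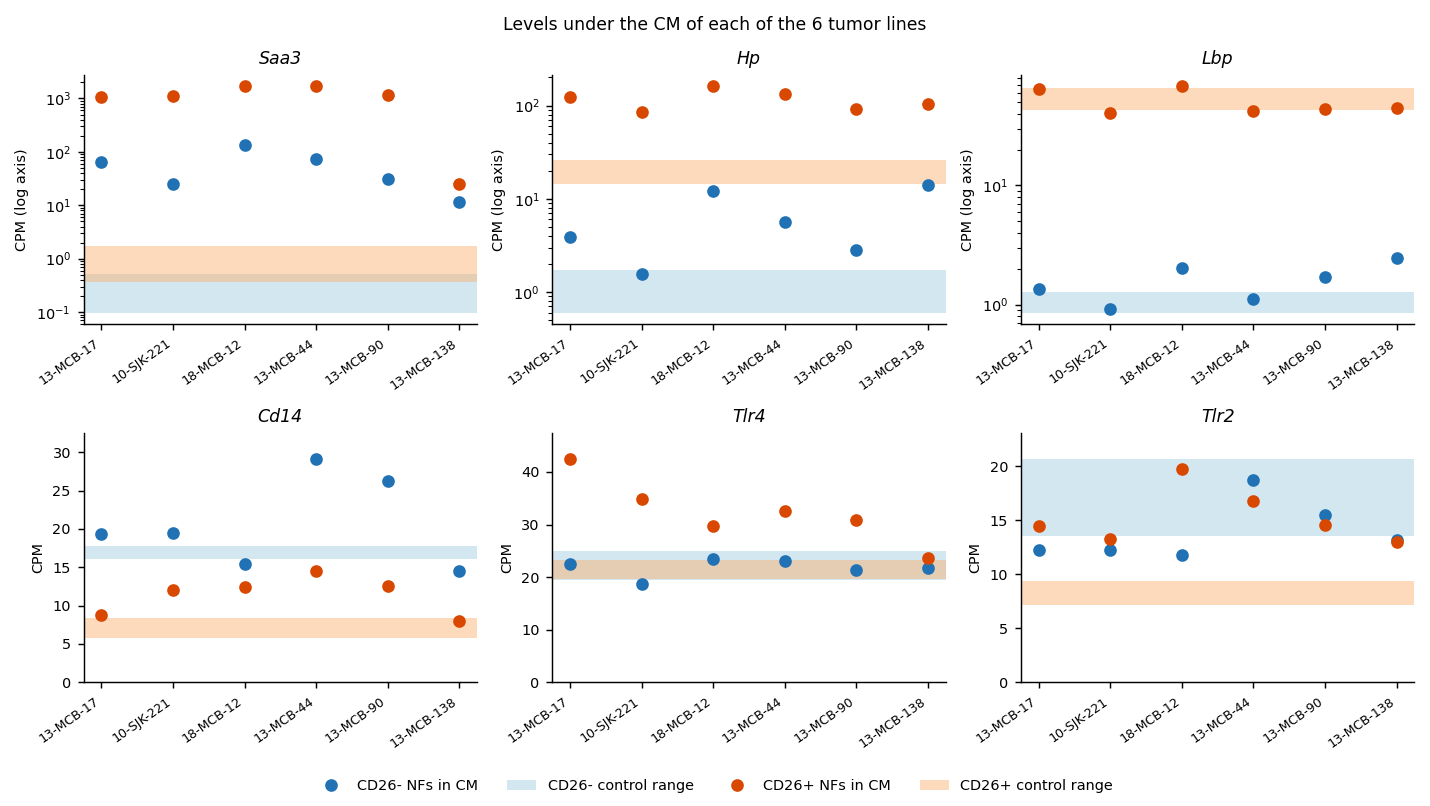
Levels of Saa3, Hp, Lbp, Cd14, Tlr4 and Tlr2 in CPM under the CM of each of the 6 tumor lines, with 1 set of points per NF type. Shaded bands are the control ranges of each NF type. Axes are log for Saa3, Hp and Lbp and linear for the other genes. The CD26+ level of Saa3 drops to 24.6 CPM with the CM of 13-MCB-138, where Hp is at 104 CPM.

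Set side by side within a tumor line, CD26+ NFs had 18.0 to 47.2 times the Lbp and 4.85 to 8.81 times the Tril of CD26- NFs. Hp was 7.34 to 54.7 times as high and Saa3 12.8 to 44.4 times as high, except with 13-MCB-138, where Saa3 was 2.15 times as high. Cd14 (0.454 to 0.804) and Tlr3 (0.336 to 0.504) were below 1 with every line, Tlr4 (1.09 to 1.88) and Myd88 (1.14 to 1.40) above 1 with every line, and Tlr2 (0.891 to 1.68) and Ly96 (0.629 to 1.70) on both sides.

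The CM of 13-MCB-138 was then looked at across the genes, a choice made after the Saa3 values were seen and so without a test. In CD26+ NFs, 6 of the 10 members were lower with this CM than with any of the other 5 (Saa3, Cd14, Ly96, Tlr4, Tlr2 and Myd88), where 23.8% of all tested genes were. In CD26- NFs there were 2 (Saa3 and Cd14), where 18.5% of tested genes were, and Lbp (2.48 CPM) and Hp (14.1 CPM) were above the other 5, as 19.5% of tested genes were. Of 10 other acute-phase genes, 8 were lowest with this CM in CD26+ NFs and none highest, and 3 were lowest and 2 highest (Ptx3 and Lrg1) in CD26- NFs. Among them Lcn2, the iron-siderophore binding lipocalin, was at 7.15 CPM against 31.1 to 51.3 CPM in CD26+ NFs and at 3.71 against 58.5 to 181 CPM in CD26- NFs. Steap4, a metalloreductase, was at 2.30 against 8.84 to 13.4 CPM in CD26- NFs. Ptx3, the long pentraxin, was within the range of the other lines in CD26+ NFs at 771 CPM, as Hp was at 104 CPM. Leaving out both libraries of this line left 3 members called for tumor CM in CD26- NFs and 6 in CD26+ NFs, with Saa3 at 7.73 (FDR 2.62e-05) and 10.52 (FDR 2.81e-08).

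The other genes of these pathways were counted by lists, to be read against the shares of all tested genes. With tumor CM 7.88% were higher and 7.28% lower in CD26- NFs, and 15.2% higher and 13.4% lower in CD26+ NFs. In CD26+ against CD26- NFs 25.0% were higher and 25.4% lower in control medium, and 29.3% each in tumor CM. Of 27 further acute-phase genes, 10 were tested, and tumor CM raised 6 in CD26- NFs and all 10 in CD26+ NFs, with none lower and median log2 fold changes of 1.30 and 2.12. Steap4 rose by 4.84 ± 0.59 (FDR 1.52e-05) in CD26+ NFs, Mt2, a metallothionein, by 2.79 ± 0.30 (FDR 4.64e-06) and Serpina3g, a serine protease inhibitor, by 2.68 ± 0.29 (FDR 4.56e-06). Serpina3n, of the same inhibitor family, rose by 1.76 ± 0.27 in CD26- NFs (FDR 0.000602) and was higher in CD26+ NFs in control medium by 4.50 ± 0.32 (FDR 1.05e-08). Between NF types 4 of the 10 were higher in CD26+ NFs in control medium and 8 in tumor CM, with 1 lower in each. Cp, ceruloplasmin, was the 1 gene of the list whose response differed between NF types (2.00 ± 0.52, FDR 0.0266).

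Of 14 tested regulators of the acute-phase response, 11 were higher in CD26+ NFs in control medium and 13 in tumor CM, and 1 was lower in control medium, where 50.3% and 58.6% of all tested genes passed in either direction. Il6st (gp130), the shared receptor chain of the interleukin-6 family, was higher by 1.69 ± 0.11 in control medium (FDR 5.56e-09). With tumor CM 4 were higher and 1 lower in CD26- NFs, and 3 were higher and 2 lower in CD26+ NFs. Cebpd, the C/EBP delta factor, rose by 1.51 ± 0.22 in CD26- NFs (FDR 0.000362) from 4.57 to 12.8 CPM, while CD26+ NFs had 27.5 CPM in control medium and 30.9 CPM in tumor CM, and the responses differed by -1.33 ± 0.27 (FDR 0.00849). Il6ra, the interleukin-6 receptor, rose by 1.20 ± 0.14 in CD26+ NFs (FDR 7.04e-06), and its response differed by 0.82 ± 0.19 (FDR 0.0147).

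Of 19 tested brakes of Toll-like receptor signaling, 4 were higher and 1 lower with tumor CM in CD26- NFs, where 15.2% of all tested genes passed, and 8 were higher and 1 lower in CD26+ NFs, where 28.6% passed. Irak3 (IRAK-M), a kinase relative that dampens Myd88 signaling, rose by 1.49 ± 0.19 in CD26- NFs (FDR 0.000194) and by 2.22 ± 0.17 in CD26+ NFs (FDR 1.48e-07), from 16.4 ± 1.16 to 76.3 ± 15.5 CPM in the latter. Zc3h12a, an RNase that degrades inflammatory transcripts, rose by 1.31 ± 0.13 (FDR 3.16e-05) and 1.45 ± 0.13 (FDR 6.15e-07). Il1rl1, the interleukin-33 receptor, rose by 1.87 ± 0.25 in CD26+ NFs (FDR 2.94e-05). Tnfaip3 (A20), the NF-kB inhibitor, was lower in CD26+ NFs in control medium by 2.40 on the log2 scale (mean 19.6 against 103 CPM, FDR 8.85e-06), and its response to tumor CM differed by 1.41 ± 0.38 (FDR 0.0317). Between NF types 10 brakes were lower and 3 higher in CD26+ NFs in control medium, and 8 lower and 6 higher in tumor CM, beside 50.3% and 58.6% of all tested genes in either direction.

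Of 22 tested adaptors and kinases, 2 were higher and 2 lower with tumor CM in CD26- NFs, where 15.2% of all tested genes passed. In CD26+ NFs 7 were higher and none lower, where 28.6% of all tested genes passed, 15.2% higher and 13.4% lower. Ikbke, a kinase of the interferon arm, rose by 0.84 ± 0.19 (FDR 0.00658) and 1.28 ± 0.19 (FDR 9.83e-05). Traf3, a ubiquitin ligase of the same arm, rose in CD26+ NFs by 0.45 ± 0.06 (FDR 8.05e-05), with a difference in response of 0.53 ± 0.09 (FDR 0.00402). Of 9 other Toll-like receptors, 4 were tested: Tlr7, an endosomal sensor of single-stranded RNA, rose in both NF types (2.27 ± 0.37, FDR 0.000863, and 1.37 ± 0.39, FDR 0.0137) to means of 2.66 and 1.38 CPM, and Tlr5, the flagellin receptor, was lower in CD26+ NFs in control medium by 1.80 on the log2 scale (FDR 8.44e-05). Of 6 tested receptor chaperones and relatives, 1 was higher with tumor CM in CD26- NFs, and 2 were higher and 2 lower in CD26+ NFs, among the latter the chaperone Cnpy3 (-0.35 ± 0.09, FDR 0.00635). Unc93b1, which carries Tlr3 and its endosomal relatives, was higher in tumor CM in both NF types (0.38 ± 0.12, FDR 0.0396, and 0.44 ± 0.11, FDR 0.00629). It was also higher in CD26+ than CD26- NFs in control medium (0.88 ± 0.13, FDR 3.4e-05), opposite to Tlr3.

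Across the 18 libraries the genes whose log2 CPM followed a member most closely are given as a description, since these libraries share their group structure. Of the tested genes other than members, 800 had an r of at least 0.9 with Lbp, 638 with Tril, 129 with Saa3 and 294 with Hp. The genes named here are only the top 3 of each. Lbp ran with Lgmn (Pearson r 0.993), Lamp2 (0.991) and C4b (0.990), a protease and a membrane protein of the lysosome and a complement component. Tril ran with Nfil3 (0.986), Itm2a (0.985) and Spg20 (0.984). Saa3 ran with Gm2115 (0.981), the chemokine Ccl8 (0.979) and Tmem176b (0.978). Hp ran with Ptx3 (0.982), lipoprotein lipase Lpl (0.978) and the complement inhibitor Serping1 (0.974).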

How the data were processed

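RNA was prepared with a stranded poly(A) protocol and sequenced as 65-base single reads. The submitters' processing notes name HISAT2 2.1.0, HTSeq and GRCm38. The deposited values are raw counts of reads per gene made by the authors, as whole numbers, for 55486 genes in 18 libraries, with 1 further row that names no gene and holds 0 counts. The strand setting and annotation release are not given in the sources used here.

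The counts were analysed with edgeR 4.0.16 in R 4.3.3. Genes with low counts were removed (filterByExpr, 14273 left), libraries were scaled by TMM, and 1 quasi-likelihood model over the 4 groups gave 5 contrasts, with Benjamini-Hochberg adjustment over all tested genes. FDR means this adjusted p. The ± after a log2 fold change, called SE, is its absolute value over the square root of the F statistic of its test. It is not an SE taken from the fit, and the values of related contrasts need not combine like standard errors. CPM values are scaled by TMM, and exon lengths are from GENCODE M21. A second model (cell type and tumor line, 12 libraries, 13344 genes) tested the line. DESeq2 1.42.0, as used in the study, was an alternative, beside other scaling, filters and left-out libraries. Scripts were tested on simulated data.

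The members and gene lists were chosen with earlier results of these data known. From each list and contrast at most 3 genes that passed, those of lowest p whose mean reached 1 CPM in some group, are named, and of genes like a member the 3 with the highest r. Lcn2 was named after its values were seen. The full genotype of the tumor model is not reported here. The labels give no batch. Each tumor line gave CM to 1 CD26- and 1 CD26+ culture, and residuals of libraries of the same line correlated in all 6 cases (r 0.247 to 0.406), so a fit with the line as a block was run as an alternative. The values given are without it unless stated. No 2 libraries were duplicates (chi-square per degree of freedom at least 3.03).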

Additional observations from a re-analysis of the deposited data

Results flagged for a closer look

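The CM effect on Tlr2 differed between CD26+ and CD26- NFs by 1.29 on the log2 scale in the interaction test (SE 0.24, FDR 0.00583), with all 6 CD26+ libraries in tumor CM above their controls.

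Among 20 sets of 6 tumor CM libraries, 1 for each gene and NF type, 2 held a library far from the others by Dixon's ratio of its gap to the range on log2 CPM (critical value 0.625), and chance gives about 1 in 20. Saa3 in CD26+ NFs was lowest in replicate 18 (ratio 0.887 on log2 CPM, 0.614 on CPM; 24.6 CPM against 1066 or more in the other 5). Tril in CD26- NFs was lowest in replicate 5, grown in CM of 10-SJK-221 (ratio 0.682 on log2 CPM, 0.615 on CPM; 2.32 CPM against 3.57 to 4.35). On CPM neither ratio is past the critical value.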

How the results depend on the processing

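Over 50 log2 fold changes of members and 1244 alternative values of them, 1204 kept direction and side of the threshold, 10 lost their call, 11 gained one and 19 changed sign. Those of Lbp and Tril between NF types in tumor CM are among them, although the choice of these genes fixed their call. The count of members called for the difference in CM effect was 1 and became 2 with DESeq2, 3 without line 13-MCB-138 (chosen after the data were seen), 4 with the CM line as a replicate block (Tlr2, Tril, Tlr4 and Tlr3) and 1 to 3 when single libraries were left out, 3 of them without replicate 18. With DESeq2, the block, and without the line or replicate 18, these counts include Tril, whose value holds the difference it was chosen by. Over all tested genes this count was 1075, against 2516 with the block, 2412 without the line and 339 to 2345 without single libraries. With the block, the call of none of the 8 members other than Lbp and Tril changed between NF types in tumor CM. For the CM effect in CD26- NFs the count of 3 members became 1 to 4 without single libraries, 1 of them without replicate 3, and the count over all genes, 2164, became 825 to 2748. The test among lines called 0 members, 1 with DESeq2 and 0 to 1 when a line was left out (876 genes in all, 1387 with DESeq2, 430 to 1420 without a line). Counts were 5 to 6 for the CM effect in CD26+ NFs, 6 to 7 between NF types in control medium and, of the 8 members other than Lbp and Tril, 6 in tumor CM.

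The values that changed sign passed no test. Tlr4 in CD26- NFs, 0.00, became -0.0052 with RLE scaling, -0.0051 without the filter and -0.0050 with DESeq2, and spanned -0.071 to 0.12 without single libraries. Likewise without single libraries, Ly96 in CD26- NFs spanned -0.12 to 0.26, Lbp in CD26+ NFs -0.16 to 0.16, Ly96 between NF types in control medium -0.30 to 0.079, Tlr4 there -0.061 to 0.13 and the difference in CM effect of Hp -0.80 to 0.041, the last being 0.070 without line 13-MCB-138. Beside the losses given in the text, Tlr2 gained a call in CD26- NFs without replicate 7 (FDR 0.0492). Myd88 gained one between NF types in control medium in a model of the compared groups (FDR 0.0378) and without replicate 13 (FDR 0.0339). Saa3 was called with tumor CM under each alternative that gave it a value, at 7.06 to 8.09 in CD26- and 9.87 to 11.10 in CD26+ NFs. Its control levels rest on 1 to 23 counts a library, and the test did not separate them. Labels share no replicate numbers across groups, so the pairing is by tumor line.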
